A study of Mus musculus with 24 samples.

Results

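Kidney gene expression was compared between female BPH/2J mice, the Schlager genetically hypertensive strain, and female BPN/3J mice, the normotensive strain bred beside it. The comparison used the 12 female arrays of a series of 24, with 6 arrays per strain, 1 mouse per array, and every mouse was 12 weeks old and untreated. The other 12 arrays held males of the same 2 strains and entered only where the strain difference in females was set against that in males. Total RNA of whole kidney was hybridised to Affymetrix Mouse Gene 1.0 ST arrays, and each value below is a log2 signal on which a step of 1 doubles the brightness. Both strains are inbred and were obtained by breeding mice selectively for high or for normal blood pressure, and the blood pressure of these animals was not part of the data.

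The kidney sets blood pressure in the long term by deciding how much sodium and water leaves the body. The proximal tubule reclaims most of the filtrate, the thick ascending limb and distal convoluted tubule reclaim sodium chloride under hormonal control, and the collecting duct makes the last adjustment through principal cells (sodium and water) and intercalated cells (acid and base). Renin, angiotensin, endothelin, nitric oxide, natriuretic peptides and renal nerves act on these segments and on the vessels that feed them. Gene lists for these segments, hormones and cell types are described below, each by the number of its members that passed the test.

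All 12 arrays carried the defining transcripts of kidney at high and even levels. *Slc34a1*, the phosphate transporter of the proximal tubule, lay between 13.54 and 13.63, *Umod*, made by the thick ascending limb, between 13.62 and 13.76, and *Aqp2*, the water channel of principal cells, between 10.54 and 10.88. *Xist*, the RNA that coats the inactive X chromosome, lay between 12.26 and 12.51 in the 12 females and between 4.61 and 5.75 in the 12 males, and the Y-linked *Eif2s3y* did not exceed 4.84 in any female. Transcripts of neighbouring organs were also present in some arrays. The mean over 24 hepatocyte genes was 11.28 and 11.62 in BPN/3J arrays 2 and 5, 9.26 in BPH/2J array 3 and 7.59 in BPH/2J array 2, against 6.33 to 7.13 in the other 4 BPN/3J arrays and 6.41 to 6.66 in the other 4 BPH/2J arrays. *Alb*, the serum albumin made by hepatocytes, ran from 9.85 through a median of 10.67 to 13.89 in BPN/3J and from 9.54 through 10.05 to 13.24 in BPH/2J. Its log2 difference was -0.69 over all arrays and 0.52 without BPN/3J arrays 2 and 5, in neither case past the test. The mean over 9 adrenal cortex genes was 5.73 to 6.36 in BPN/3J arrays 3 and 6 and BPH/2J arrays 5 and 6 and 8.49 to 10.07 in the other 8, so that low and high arrays occurred in both strains. The counts of calls, of list members called and of interactions given below were therefore recomputed without BPN/3J arrays 2 and 5, which leaves 4 arrays against 6. The counts by fold, by run of neighbours and by chromosome were not.

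**Figure D1:**
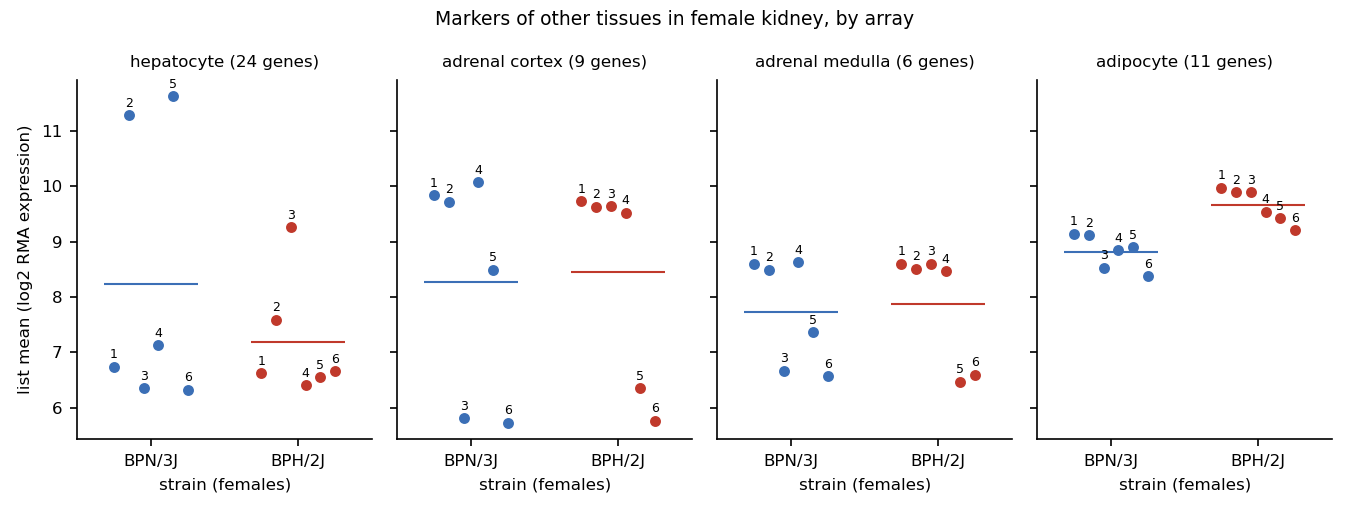
Mean log2 signal over the hepatocyte, adrenal cortex, adrenal medulla and adipocyte gene lists in each of the 12 female arrays (y axis). The x axis gives strain and array number, and a horizontal line marks the group mean. BPN/3J arrays 2 and 5 stand at 11.28 and 11.62 for hepatocyte genes, and the adipocyte means of the strains do not overlap (8.37 to 9.14 against 9.20 to 9.97).

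The first question was which genes differ between the strains in females. Of 21159 probe sets that name exactly 1 gene, 237 (1.12%) were higher and 230 (1.09%) lower in BPH/2J at a Bonferroni-adjusted p under 0.05 in limma. These 467 probe sets name 451 genes, 229 higher and 222 lower. At the Benjamini-Hochberg threshold, used for the gene lists below, 1703 (9.07%) of 18782 genes were higher and 1296 (6.90%) lower. The median log2 difference over all genes was 0.02. RMA makes the distributions of arrays alike (array medians 6.92 to 6.97), so that the overall level of the strains cannot be compared. Most differences were modest. The median size of a Bonferroni call was 0.62 on the log2 scale, 258 of the 467 exceeded 1.5-fold, 91 exceeded 2-fold and 19 exceeded 4-fold. Without BPN/3J arrays 2 and 5, 272 of the 467 passed the Bonferroni threshold again, and all 467 kept their sign and a Benjamini-Hochberg adjusted p under 0.05.

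*Angptl7*, which encodes a secreted angiopoietin-like protein, showed the largest rise in BPH/2J. It lay between 6.85 and 7.35 (median 7.19) in BPN/3J females and between 11.84 and 12.19 (median 11.96) in BPH/2J females, so the lowest BPH/2J array stood far above the highest BPN/3J array. The log2 difference was 4.86 (SE 0.0934, n = 6 per strain, limma Bonferroni-adjusted p = 1.01e-11), a 29.1-fold higher signal. The gene lies at chr4:148495181-148500462 (GRCm38) on the minus strand. *Cyp4b1*, a cytochrome P450 that hydroxylates fatty acids, followed with 8.57, 8.80 and 9.02 (lowest, median and highest) in BPN/3J and 12.03, 12.23 and 12.37 in BPH/2J. This was a 10.7-fold difference (log2 3.42, SE 0.0830, adjusted p = 1.94e-10), again with no overlap. *Inmt*, which methylates tryptamine and related amines, was 9.16, 9.44 and 10.61 in BPN/3J and 11.90, 12.07 and 12.30 in BPH/2J. Its log2 difference was 2.33 (SE 0.224, adjusted p = 0.00408) and became 2.71 without BPN/3J arrays 2 and 5. Those arrays, with the high hepatocyte means, were the highest of the BPN/3J group for *Inmt* at 10.36 and 10.61, the other 4 lying between 9.16 and 9.46, and the part of liver transcript in this was not tested.

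The 250 bases upstream of the annotated start are shown for these 3 genes because they carry the largest rise and 2 of the largest differences between the sexes, and for *Atp6v1b1*, a proton pump subunit, because the intercalated cell list to which it belongs is described below. The sequences are those of the RefSeq reference mouse (GRCm38.p6), not of BPH/2J or BPN/3J, and are written 5′ to 3′ on the strand of the gene. Capitals mark TATAAA (the TATA box core) or TGTTTA (the core bound by forkhead factors such as Foxi1), searched on both strands.
*Angptl7* chr4:148500463-148500712 (minus strand): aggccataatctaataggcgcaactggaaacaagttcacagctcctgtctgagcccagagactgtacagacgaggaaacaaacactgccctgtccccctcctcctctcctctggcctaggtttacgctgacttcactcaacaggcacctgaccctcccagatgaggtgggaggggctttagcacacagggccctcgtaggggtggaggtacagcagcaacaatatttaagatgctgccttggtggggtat
*Cyp4b1* chr4:115647722-115647971 (minus strand): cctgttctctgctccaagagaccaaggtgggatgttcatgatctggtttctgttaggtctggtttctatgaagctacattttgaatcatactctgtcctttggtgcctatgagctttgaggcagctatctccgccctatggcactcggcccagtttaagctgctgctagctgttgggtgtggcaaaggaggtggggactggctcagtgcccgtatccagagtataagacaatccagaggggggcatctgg
*Inmt* chr6:55174991-55175240 (minus strand): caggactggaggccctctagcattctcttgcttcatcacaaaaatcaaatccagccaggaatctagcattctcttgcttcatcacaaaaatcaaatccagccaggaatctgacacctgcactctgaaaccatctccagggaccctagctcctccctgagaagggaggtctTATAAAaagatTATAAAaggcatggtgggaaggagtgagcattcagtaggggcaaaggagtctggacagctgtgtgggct
*Atp6v1b1* chr6:83742767-83743016 (plus strand): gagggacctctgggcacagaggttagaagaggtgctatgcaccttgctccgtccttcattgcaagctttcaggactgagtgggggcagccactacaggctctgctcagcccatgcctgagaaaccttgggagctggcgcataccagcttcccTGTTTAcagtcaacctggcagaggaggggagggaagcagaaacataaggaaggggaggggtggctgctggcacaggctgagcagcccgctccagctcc
The *Inmt* window held TATAAA 80 and 69 bases before the start, and the *Atp6v1b1* window held TGTTTA 98 bases before it, while neither motif occurred in the *Angptl7* and *Cyp4b1* windows. Among 32851 promoter windows of this length, 12.4% held TATAAA and 12.0% held TGTTTA.

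Of the 15 largest rises, the remaining members were a mixed group. *Gabra3*, an ion channel subunit of the GABA receptor, lay between 4.93 and 5.65 (median 5.57) in BPN/3J and between 8.39 and 8.63 (median 8.43) in BPH/2J, an 8.23-fold difference (adjusted p = 4.65e-08). *Scrg1*, a small secreted protein first found in scrapie-infected brain, lay between 4.89 and 5.25 (median 5.04) in BPN/3J and between 7.84 and 8.62 (median 8.22) in BPH/2J, a 9.11-fold difference (adjusted p = 3.07e-08). *Atp4a*, the catalytic subunit of the gastric proton-potassium pump, lay between 7.59 and 7.94 (median 7.83) in BPN/3J and between 10.14 and 10.24 (median 10.22) in BPH/2J. The last of these was a 5.29-fold difference (adjusted p = 9.33e-11), with BPH/2J arrays close together (SD 0.0459, n = 6). Further rises were seen for the small nucleolar RNA *Snord53* (log2 2.66), the carbonyl reductase *Cbr2* (2.28), the zinc finger gene *Zfp605* (2.25), the pleckstrin homology domain gene *Plekhb1* (2.00), the meiotic gene *Tex15* (1.94), the zona pellucida domain gene *Zpld1* (1.94), the secreted *Nell2* (1.88), the lipid flippase *Atp10d* (1.87) and the neuronal transmembrane protein *Slitrk6* (1.85). None of them overlapped between the strains, which was a condition for naming them and held for all 467 Bonferroni calls.

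Among the falls, *Spink6*, a Kazal-type serine protease inhibitor, showed the largest change. It lay between 9.74 and 10.16 (median 10.05) in BPN/3J and between 5.01 and 5.53 (median 5.32) in BPH/2J, a signal 25.9-fold lower (log2 -4.69, SE 0.0909, adjusted p = 1.14e-11). Both probe sets that name *Atg4a*, a protease that processes the Atg8 proteins of autophagy, were lower, by log2 differences of -3.19 and -2.92 with no overlap. Whether the 2 probe sets match separate sequences was not tested, so they are not counted as independent measurements. *Tmem267*, a transmembrane protein, lay between 10.64 and 10.94 (median 10.82) in BPN/3J and between 7.98 and 8.42 (median 8.30) in BPH/2J (log2 -2.54, adjusted p = 7.70e-09). *Wfdc17*, a whey acidic protein made by myeloid cells, lay between 7.91 and 8.93 (median 8.28) in BPN/3J and between 5.61 and 6.51 (median 5.72) in BPH/2J (log2 -2.43, adjusted p = 0.000268). These were followed by the secreted and transmembrane *Sectm1a* (-2.21), the leukocyte adhesion receptor *Adgre5* (-2.12), the melanocyte-associated *Lrmda* (-2.05), the replicative helicase subunit *Mcm6* (-1.90), the cilium gene *Cfap126* (-1.86), *Eif4a3*, a core protein of the exon junction complex (-1.85), the monocarboxylate transporter *Slc16a5* (-1.82) and the protease inhibitor *Serpinb8* (-1.80). The other 2 of the 15 largest falls carry clone or model names and are not named here. All 28 probe sets named among the largest rises and falls kept a Bonferroni-adjusted p under 0.05 without BPN/3J arrays 2 and 5.

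**Figure D2:**
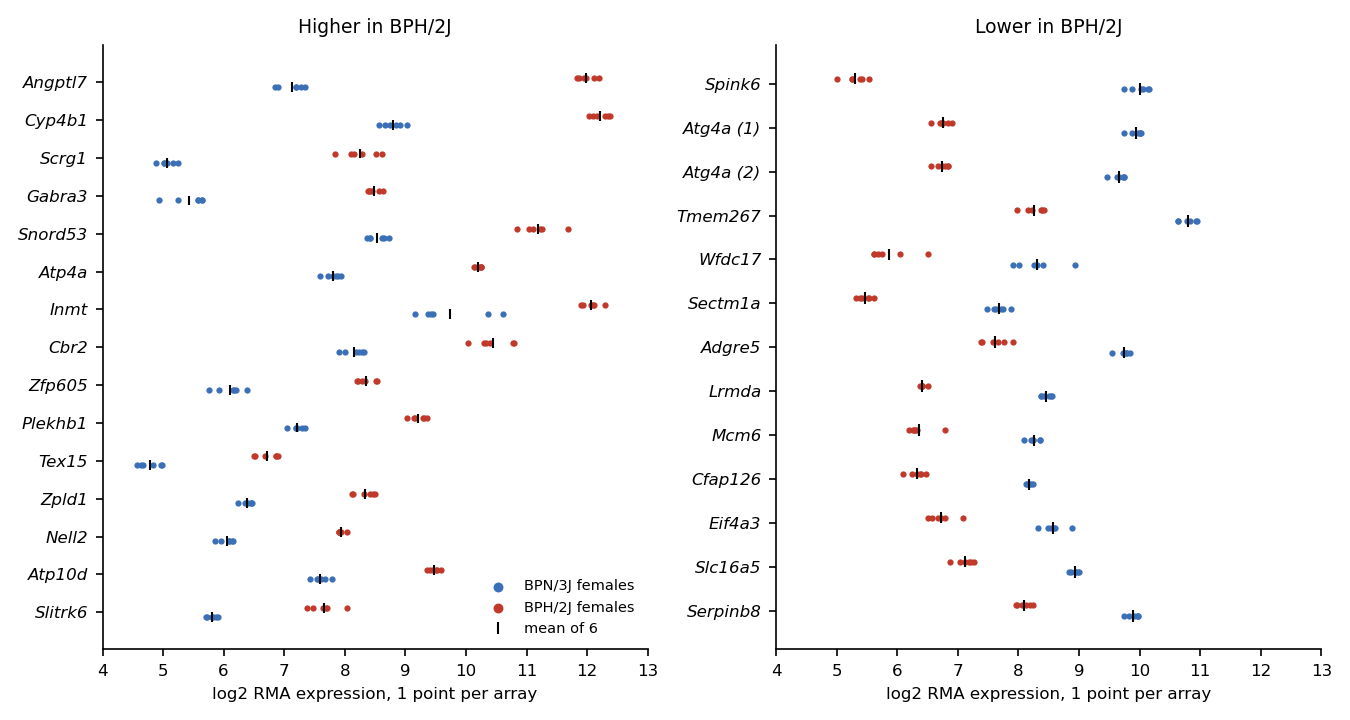
Log2 signal (x axis) of the genes with the largest rises (left) and falls (right) in BPH/2J females, 1 row per probe set (y axis) with a point for each of the 6 BPN/3J and 6 BPH/2J arrays. The strains do not overlap in any row, which was a condition of the choice. The gap is widest for *Angptl7* (7.35 to 11.84) and *Spink6* (5.53 to 9.74).

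The segments of the nephron were taken in turn. Each count of a list here and below stands against 9.07% of all genes higher and 6.90% lower. In the proximal tubule list of transport and endocytosis genes, 6 of 22 measured members fell (27.3%, against 6.90% of all genes) and none rose, with a median log2 difference of -0.14. The falls numbered 9 without BPN/3J array 2 and 10 with the hepatocyte mean of each array as a covariate. The largest fall was in *Slc6a18*, a neutral amino acid transporter, which lay between 12.96 and 13.05 (median 13.01) in BPN/3J and between 12.17 and 12.49 (median 12.44) in BPH/2J (log2 -0.61, limma Bonferroni-adjusted p = 0.000781). Smaller falls were seen in *Slc7a9* (-0.38), which takes up cystine, *Slc2a2* (-0.30), the basolateral glucose transporter, *Slc34a3* (-0.29), a phosphate transporter, *Slc17a3* (-0.25), an organic anion transporter, and *Slc13a1* (-0.22), the sulfate transporter. The main apical sodium transporters of the segment gave values near 0, with 0.02 for the sodium-proton exchanger *Slc9a3*, 0.01 for the phosphate transporter *Slc34a1* and 0.04 for the glucose transporter *Slc5a2*, none past the test.

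In the thick ascending limb list, 4 of 13 members rose (30.8%) and none fell. *Cldn16*, a tight junction protein through which magnesium and calcium pass, lay between 9.95 and 10.15 (median 10.04) in BPN/3J and between 10.44 and 10.74 (median 10.66) in BPH/2J (log2 0.59, adjusted p = 0.00464). The others were *Tmem207* (0.43), *Casr* (0.21), the calcium-sensing receptor, and *Cldn10* (0.14), a sodium-permeable claudin. Without BPN/3J arrays 2 and 5 the count was 2 of 13. The sodium-potassium-chloride cotransporter *Slc12a1* differed by 0.04 and the potassium channel *Kcnj1* by -0.01, neither past the test.

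In the list of distal convoluted tubule genes and WNK kinases, 4 of 14 members fell (28.6%). These were *Pvalb* (-0.67), the calcium-binding parvalbumin, *Trpm6* (-0.42), the magnesium channel, *Slc12a3* (-0.22), the thiazide-sensitive sodium-chloride cotransporter, and *Cnnm2* (-0.19), a magnesium transport protein. *Trpm6* lay between 8.99 and 9.14 (median 9.10) in BPN/3J and between 8.44 and 8.76 (median 8.69) in BPH/2J. *Slc12a3* lay between 12.78 and 12.92 (median 12.81) in BPN/3J and between 12.48 and 12.71 (median 12.64) in BPH/2J. Neither gene overlapped between the strains, whereas *Pvalb* did. The kinases themselves did not pass the test, with log2 differences of 0.02 for *Wnk1*, 0.16 for *Wnk4* and 0.06 for *Stk39*. No member rose over all arrays, and 1 or 2 did when BPH/2J array 3, BPH/2J array 4 or BPN/3J array 4 was left out.

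In the collecting duct the called genes were all higher in BPH/2J. Among principal cell genes, 4 of 11 rose (36.4%) and none fell, with 3 rises without BPN/3J arrays 2 and 5. The 4 rises over all arrays were the epithelial sodium channel subunits *Scnn1b* (0.46) and *Scnn1g* (0.42), the basolateral water channel *Aqp3* (0.32) and the transcription factor *Gata3* (0.18). *Scnn1b* lay between 9.71 and 9.90 (median 9.79) in BPN/3J and between 10.16 and 10.33 (median 10.26) in BPH/2J (adjusted p = 0.00224), and *Scnn1g* between 10.23 and 10.47 (median 10.35) against 10.73 to 10.83 (median 10.78, adjusted p = 0.0111). Neither gene overlapped. The third subunit, *Scnn1a*, differed by 0.02 and *Aqp2* by 0.08, neither past the test.

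Among intercalated cell genes, 11 of 14 members rose and none fell (78.6%, against 9.07% of all genes), with a median log2 difference of 0.25 beside 0.02 over all genes. *Rhbg*, an ammonium transporter, lay between 10.46 and 10.58 (median 10.53) in BPN/3J and between 11.16 and 11.40 (median 11.34) in BPH/2J (log2 0.80, SE 0.0449, adjusted p = 7.13e-06). *Oxgr1*, the receptor for alpha-ketoglutarate, lay between 8.88 and 9.10 (median 8.99) in BPN/3J and between 9.54 and 9.65 (median 9.58) in BPH/2J (log2 0.60, adjusted p = 6.22e-05). *Foxi1*, the forkhead factor that specifies these cells, differed by 0.46. The proton pump subunits *Atp6v1c2* (0.39), *Atp6v1g3* (0.37), *Atp6v0d2* (0.33) and *Atp6v1b1* (0.16) and the anion exchangers *Slc26a4* (0.20) and *Slc4a1* (0.19) also rose. Without BPN/3J arrays 2 and 5 the count fell to 7 of 14, the calls for *Atp6v1b1*, *Slc26a4*, *Slc4a1* and a further member, *Hmx2*, being lost. Of the members with a window in the promoter table, 9 genes with 10 windows, the window of *Atp6v1b1* printed above was the only one with the forkhead core. As whole kidney was hybridised, more cells of a type and more RNA per cell cannot be told apart, here and in every cell type list below.

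**Figure D3:**
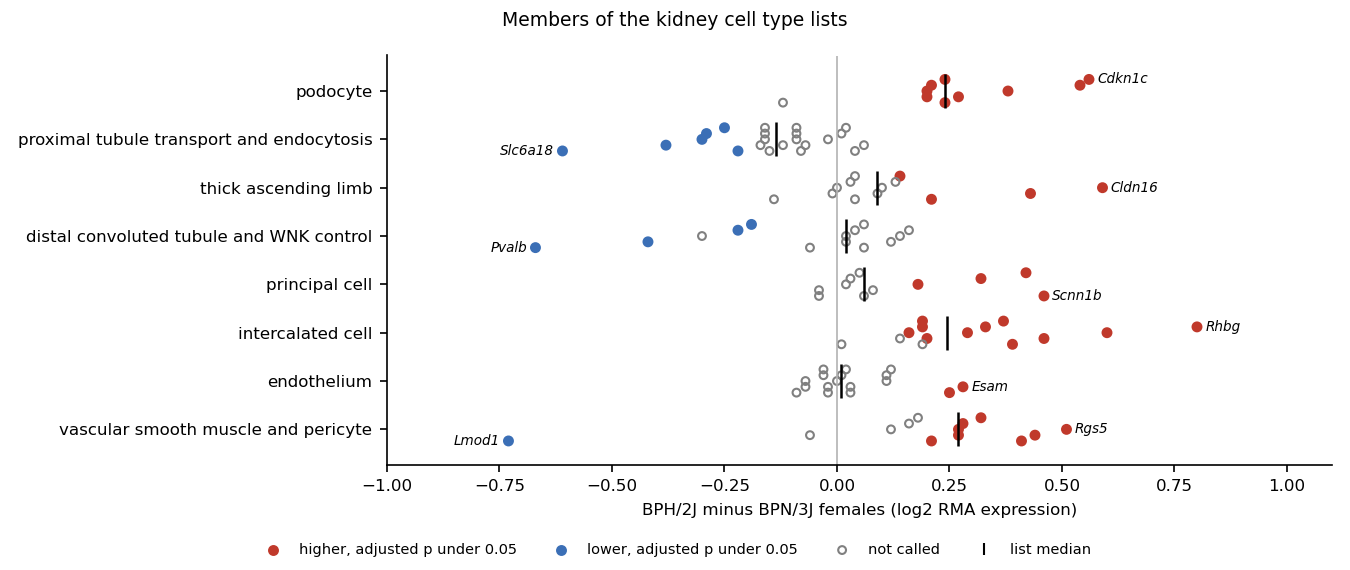
Log2 difference between BPH/2J and BPN/3J females (x axis) of every measured gene of the nephron, glomerulus and vessel lists (rows on the y axis), with members past the Benjamini-Hochberg threshold as filled points and the median of each list as a bar. The podocyte and intercalated cell points lie mostly right of 0 (medians 0.24 and 0.25) and the proximal tubule points mostly left of it (median -0.14).

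In the glomerulus, 9 of 10 podocyte genes rose and none fell (90.0%, against 9.07% of all genes), with a median of 0.24. *Thsd7a*, a membrane protein of the podocyte foot process, lay between 8.10 and 8.35 (median 8.19) in BPN/3J and between 8.68 and 8.82 (median 8.75) in BPH/2J (log2 0.54, adjusted p = 0.000864). The cell cycle inhibitor *Cdkn1c* (0.56), the phospholipase *Plce1* (0.38), the transcription factor *Wt1* (0.27), the phosphatase *Ptpro* (0.24) and the slit diaphragm protein *Nphs1* (0.21) differed in the same direction. Without BPN/3J arrays 2 and 5, 6 of the 10 were higher and 1 lower.

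Of 17 endothelial genes, 2 rose, the junction proteins *Esam* (0.28) and *Pecam1* (0.25), and none fell (11.8%, against 9.07% of all genes). Of 13 vascular smooth muscle and pericyte genes, 8 rose (61.5%) and 1 fell (7.69%). *Rgs5*, a pericyte regulator of G-protein signalling, lay between 9.24 and 9.38 (median 9.30) in BPN/3J and between 9.73 and 9.84 (median 9.82) in BPH/2J (log2 0.51, SE 0.0362, adjusted p = 0.000122). The contractile genes *Myh11* (0.44), *Acta2* (0.41), *Cnn1* (0.32) and *Tagln* (0.28) also rose. *Lmod1*, which nucleates actin filaments in smooth muscle, was the member that fell, from 6.49 to 6.77 (median 6.66) in BPN/3J to 5.79 to 6.16 (median 5.90) in BPH/2J (log2 -0.73, adjusted p = 0.00303). The count of rises was 6 of 13 without BPN/3J arrays 2 and 5 and 5 of 13 without BPN/3J array 2 alone. The mean of the adipocyte markers was also higher in BPH/2J, by 0.83 with no overlap between the strains, and its part in these rises and in those of the matrix genes below was not tested.

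Genes of the extracellular matrix moved in smaller numbers. Among fibrillar and associated collagens, 3 of 14 rose (21.4%) and none fell. The rises over all arrays were *Col3a1* (0.38), *Col1a2* (0.27) and *Col15a1* (0.22). Their count was 5 without BPN/3J array 4 and 2 without BPN/3J arrays 2 and 5. The small proteoglycans *Fmod* (0.83), *Aspn* (0.40), *Dcn* (0.37) and *Vcan* (0.32), which bind collagen or fill the matrix, were the 4 of 10 in their list that rose. *Fmod* lay between 6.81 and 7.09 (median 6.93) in BPN/3J and between 7.57 and 8.02 (median 7.76) in BPH/2J (adjusted p = 0.00345). Among the enzymes that process and crosslink collagen, 4 of 15 rose and 3 fell. The lysyl oxidases *Loxl2* (0.83) and *Lox* (0.67) were the largest rises, *Loxl2* running from 7.37 to 7.62 (median 7.46) in BPN/3J and from 8.14 to 8.45 (median 8.28) in BPH/2J (adjusted p = 0.000132). *Serpinh1*, the collagen chaperone, fell (-0.58), as did the transglutaminase *Tgm2* (-0.26) and *Loxl4* (-0.27). In the basement membrane list *Col4a3* (0.30), *Lama5* (0.23) and *Lamc1* (0.18) rose and *Col4a4* (-0.26) fell, of 18 measured, and 5 rose without BPN/3J array 4.

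Hormone and transmitter systems that act on blood pressure were described next. In the renin-angiotensin list, 3 of 11 members rose (27.3%) and 2 fell (18.2%). *Mme*, the peptidase neprilysin, lay between 11.77 and 12.10 (median 12.00) in BPN/3J and between 12.36 and 12.57 (median 12.48) in BPH/2J (log2 0.51, adjusted p = 0.0141). *Enpep*, the aminopeptidase that breaks down angiotensin II, lay between 11.64 and 11.71 (median 11.66) in BPN/3J and between 11.16 and 11.34 (median 11.20) in BPH/2J (log2 -0.44, adjusted p = 0.00111). Angiotensinogen, *Agt*, fell by 0.42, and by 0.28 without BPN/3J arrays 2 and 5, where it remained past the Benjamini-Hochberg threshold. *Cpa3* (0.43), a mast cell carboxypeptidase, and *Atp6ap2* (0.17), the prorenin receptor, rose, while angiotensin-converting enzyme, *Ace*, differed by -0.05 and the main receptor *Agtr1a* by 0.01, neither past the test. Renin has no probe set that names it alone and was not analysed here.

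In the endothelin list of 6 genes, *Edn3*, one of the 3 endothelin ligands, rose and the receptor *Ednrb* (-0.21) fell. *Edn3* lay between 6.88 and 7.38 (median 7.07) in BPN/3J and between 8.15 and 8.41 (median 8.28) in BPH/2J, a 2.23-fold difference (log2 1.16, SE 0.0835, adjusted p = 0.000142). The call for *Ednrb* was lost when BPH/2J array 4 or BPN/3J array 3, 4 or 6 was left out, and 2 members fell without BPN/3J array 1.

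Among nitric oxide, natriuretic peptide and cyclic GMP genes, 6 of 17 rose (35.3%) and 3 fell (17.6%). Without BPN/3J arrays 2 and 5, 4 rose and 3 fell. The synthases *Nos1* (0.34) and *Nos3* (0.33), both subunits of soluble guanylyl cyclase, *Gucy1a1* (0.27) and *Gucy1b1* (0.26), and the cyclic GMP-dependent kinase *Prkg1* (0.41) rose. *Corin*, the protease that activates atrial natriuretic peptide, fell (-0.39), as did the cyclic GMP phosphodiesterase *Pde5a* (-0.29) and the natriuretic peptide receptor *Npr1* (-0.20). *Corin* lay between 8.07 and 8.25 (median 8.20) in BPN/3J and between 7.68 and 7.86 (median 7.80) in BPH/2J, and *Nos3* between 6.70 and 6.95 (median 6.84) in BPN/3J and between 7.04 and 7.23 (median 7.16) in BPH/2J. Neither overlapped between the strains.

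Of 10 adrenergic and dopamine genes, *Ddc*, which makes dopamine from L-DOPA in the proximal tubule, fell and *Maoa* (0.25), which degrades it, rose. *Ddc* lay between 11.96 and 12.17 (median 12.01) in BPN/3J and between 11.14 and 11.27 (median 11.24) in BPH/2J (log2 -0.82, SE 0.0443, adjusted p = 4.27e-06). A second member rose without BPN/3J array 3 (*Drd3*) and without BPN/3J arrays 2 and 5 (*Maob*). Of 12 corticosteroid receptors and response genes, the mineralocorticoid receptor *Nr3c2* (0.30) rose, and *Fkbp5* (-0.35) and *Tsc22d3* (-0.26), both induced by glucocorticoids, fell. Neither fall was called without BPN/3J arrays 2 and 5, the call for *Tsc22d3* was lost without BPN/3J array 2 or 3 alone, and 2 members rose without BPH/2J array 1. *Sgk1*, a kinase induced by aldosterone, differed by -0.09 and did not pass the test.

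Of 11 genes of histamine and carnosine metabolism, 4 rose and none fell. *Hdc*, which makes histamine from histidine, lay between 10.65 and 11.79 (median 11.18) in BPN/3J and between 12.24 and 12.48 (median 12.44) in BPH/2J. The groups did not overlap, but the BPN/3J arrays were spread over more than 1 unit, and *Hdc* passed the Benjamini-Hochberg threshold (log2 1.17, SE 0.148, adjusted p = 0.000113) and not the Bonferroni threshold (limma adjusted p = 0.0872). The carnosine dipeptidase *Cndp1* lay between 8.57 and 8.94 (median 8.62) in BPN/3J and between 9.81 and 10.02 (median 9.93) in BPH/2J (log2 1.23, Bonferroni-adjusted p = 3.55e-06). *Cndp2*, its cytosolic relative (0.80), and the peptide transporter *Slc15a2* (0.61) completed the rises.

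A further list held genes that were also measured by quantitative PCR. Of 15 such genes, 14 had a probe set that names them alone. They had been chosen from these arrays, so their direction is not independent evidence. In the fit 7 rose and 7 fell at the Benjamini-Hochberg threshold, and all of them except *Hdc* passed the Bonferroni threshold. Besides genes given above, they included the potassium channel *Kcnk1* (log2 -1.74), the matrix protein *Vwa1* (-1.03), the phospholipase *Pld1* (-0.87), the kinase *Pak6* (-0.78), the interleukin receptor subunit *Il10rb* (-0.57) and the nuclease-helicase *Dna2* (0.55). *Kcnk1* lay between 11.06 and 11.31 (median 11.16) in BPN/3J and between 9.35 and 9.50 (median 9.46) in BPH/2J, a signal 3.35-fold lower.

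Immune lists differed in their share of calls. Of 18 macrophage and myeloid genes, *C1qc* (-0.56), *C1qb* (-0.54) and *Adgre1* (-0.48), the F4/80 antigen, fell and none rose (16.7%, against 6.90% of all genes), but only the call for *C1qb* held without BPN/3J arrays 2 and 5. The genes that present antigen on major histocompatibility complex class II gave 3 falls of 9 members, or 33.3% (*H2-Ab1* -0.54, *H2-DMa* -0.43 and *H2-Ea* -0.42), each with no overlap between the strains. *H2-Ea* lay between 10.53 and 10.85 (median 10.63) in BPN/3J and between 9.91 and 10.40 (median 10.28) in BPH/2J. None of 11 T and B lymphocyte genes was called at the Benjamini-Hochberg threshold in limma. Among 20 chemokine and cytokine genes, 4 rose and 1 fell, the rises being a larger share than the 9.07% of all genes. *Tgfb2*, a profibrotic growth factor, lay between 7.46 and 7.70 (median 7.56) in BPN/3J and between 8.33 and 9.01 (median 8.44) in BPH/2J (log2 0.95, SE 0.0994, Bonferroni-adjusted p = 0.0104). The chemokines *Ccl2* (0.42), *Ccl7* (0.29) and *Cxcl10* (0.27) rose and *Il15* (-0.24) fell. Of 13 complement genes 2 fell, *C6* (-0.51) and the receptor *C3ar1* (-0.41), and of 18 interferon-stimulated genes 2 rose, *Ifi27l2a* (0.45) and *Oasl1* (0.18). None of these last 4 calls held without BPN/3J arrays 2 and 5. The complement falls numbered 0 or 1 without any single array other than BPH/2J array 3 and BPN/3J arrays 3 and 6, and the interferon rises 0 or 1 without any single array other than BPH/2J array 6 and BPN/3J array 1. The injury list of 14 genes gave 4 rises, *Clu* (0.41), *Vim* (0.38), *Krt18* (0.24) and *Vcam1* (0.23), and 1 fall, *Sox9* (-0.39). Its rises numbered 2 when BPH/2J array 1, 2, 3 or 4 or BPN/3J array 3 or 6 was left out, and its falls 2 without BPH/2J array 3 or 6, BPN/3J array 5, or BPN/3J arrays 2 and 5. The injury markers *Havcr1* (-0.31) and *Lcn2* (-0.11) did not pass the test.

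Among metabolic lists, the enzymes of arginine, creatine and polyamine metabolism gave 4 falls of 11 and no rise. These were argininosuccinate lyase, *Asl* (-0.37), ornithine decarboxylase, *Odc1* (-0.34), its antizyme inhibitor *Azin1* (-0.19) and ornithine aminotransferase, *Oat* (-0.14). *Asl* lay between 11.04 and 11.29 (median 11.17) in BPN/3J and between 10.73 and 10.90 (median 10.79) in BPH/2J. Of 19 citric acid cycle genes 4 rose, *Sucla2* (0.33), *Sdha* (0.24), *Idh3a* (0.17) and *Sdhb* (0.17), and none fell, with 2 rises without BPN/3J arrays 2 and 5. Of 17 genes of glycolysis and gluconeogenesis, lactate dehydrogenase *Ldha* (0.46) and pyruvate kinase *Pkm* (0.21) rose and pyruvate carboxylase *Pcx* (-0.36) fell. *Ldha* lay between 12.06 and 12.16 (median 12.13) in BPN/3J and between 12.52 and 12.62 (median 12.59) in BPH/2J (adjusted p = 0.000192). The call for *Pkm* was lost without BPH/2J array 1, 2 or 4, without BPN/3J array 2, 3, 5 or 6, and without BPN/3J arrays 2 and 5, while 4 genes rose without BPN/3J array 4. The lipogenic regulator *Srebf1* fell (-0.58) with *Fads2* (-0.17), and *Me1* (0.28) and *Acacb* (0.21) rose, of 20 triglyceride and fatty acid synthesis genes. The call for *Acacb* held only when all arrays, all but BPH/2J array 6 or all but BPN/3J array 2 were used or BPN/3J arrays 2 and 5 were left out together, and that for *Fads2* was lost without BPN/3J arrays 2 and 5. *Shmt1* (0.42) and *Psph* (0.43) of serine and one-carbon metabolism rose and *Mthfd2* (-0.38) fell, of 15, with 2 falls without BPH/2J array 3.

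In the hypoxia list of 12 genes adrenomedullin, *Adm* (0.34), rose and *Bnip3* (-0.14) fell, the fall being lost without BPN/3J arrays 2 and 5. The heat shock and unfolded protein list gave 7 falls of 16 and no rise (43.8%, against 6.90% of all genes). The largest were in *Chac1* (-0.45), which degrades glutathione, and asparagine synthetase, *Asns* (-0.32), and the rest were small, from -0.23 for *Dnajb1* to -0.13 for *Hspa8*. Without BPN/3J arrays 2 and 5, 3 of the 16 fell. None of 16 circadian clock genes was called in limma, the largest difference being -0.45 for *Per1*, and of 14 immediate early genes *Junb* (0.41) alone passed. In the clock list 1 gene passed when any of BPH/2J arrays 2, 3, 5 or 6 or BPN/3J arrays 4 or 5 was left out. In the DNA replication list *Mcm6* stood apart at -1.90 (8.10 to 8.36 in BPN/3J, 6.20 to 6.79 in BPH/2J) and *Mcm10* fell by 0.21, while 5 of 20 rose, *Dna2* (0.55), *Rfc3* (0.29), *Mcm4* (0.23), *Mcm2* (0.21) and *Cdt1* (0.18). The call for *Mcm10* was lost without BPH/2J array 2 or 6 or BPN/3J array 2 or 3. These rises numbered 3 without BPH/2J array 3, without BPN/3J array 2, and without BPN/3J arrays 2 and 5. Of 8 sex steroid, prolactin and growth hormone receptors, estrogen receptor alpha, *Esr1*, rose (0.59, from 7.49 to 8.28 in BPN/3J to 8.34 to 8.55 in BPH/2J), with a log2 difference of 0.79 without BPN/3J arrays 2 and 5. *Gper1*, a membrane estrogen receptor, fell by 0.20, a call lost without BPH/2J array 2, 3, 4, 5 or 6 or BPN/3J array 3, 5 or 6.

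**Figure D4:**
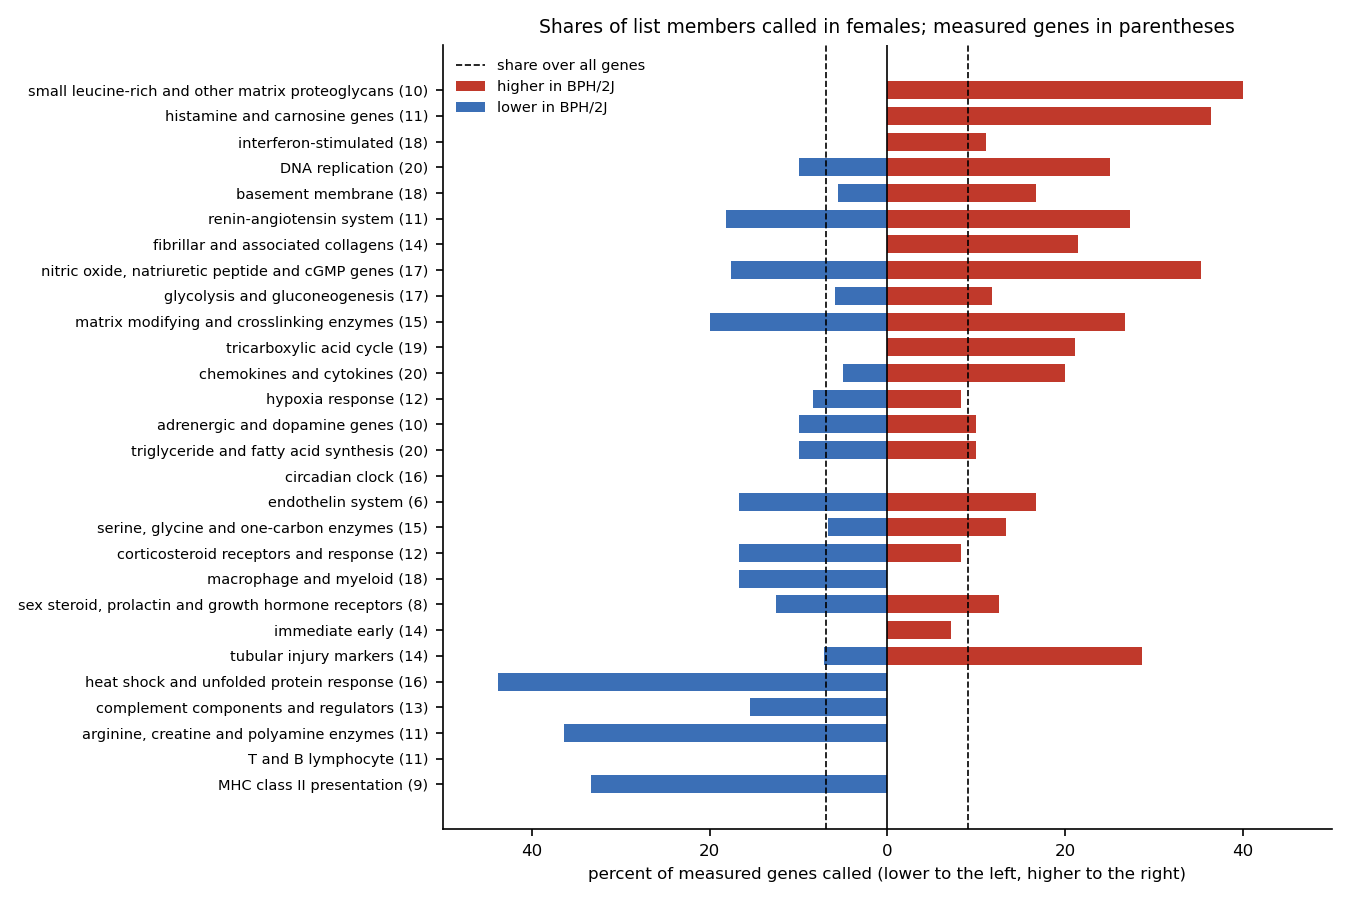
Percent of the measured members of gene lists outside the nephron, glomerulus and vessel (rows on the y axis). The x axis gives the members higher (right) or lower (left) in BPH/2J females at the Benjamini-Hochberg threshold. Dashed lines mark the shares over all genes (9.07% higher, 6.90% lower). The genes of the quantitative PCR, which the study chose for their difference, are left out. Among the lists shown, the heat shock list (43.8%) reaches farthest to the left. The histamine and carnosine list (36.4%) passes the dashed line on the right.

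Large families were read by symbol, beside 9.07% of all genes higher and 6.90% lower. Of 370 solute carriers 40 rose (10.8%) and 53 fell (14.3%), and 27 rose and 44 fell without BPN/3J arrays 2 and 5. The family contained the organic anion carrier *Slco1a6* (log2 0.87), *Slc4a11*, of the bicarbonate transporter family (0.66), the vitamin transporter *Slc5a6* (-0.85) and the monocarboxylate transporter *Slc16a14* (-1.25). Of 88 cytochrome P450 genes 7 rose and 7 fell (7.95% each), near the shares over all genes. Without BPN/3J arrays 2 and 5, 8 rose and 4 fell. Besides *Cyp4b1*, *Cyp4a31* (0.59) was higher and *Cyp2j11* (-0.40) lower at the Bonferroni threshold, and *Cyp4a31* lies beside *Cyp4b1* at chr4:115563627-115579015. Of 87 potassium channel genes 12 rose (13.8%) and 6 fell (6.90%), and 8 rose and 5 fell without BPN/3J arrays 2 and 5. Of 342 zinc finger genes 35 rose (10.2%) and 17 fell (4.97%), and 24 rose and 13 fell without BPN/3J arrays 2 and 5. The zinc finger falls numbered 10 without BPH/2J array 1 or 2 or BPN/3J array 3. Over all arrays the 6 calls among 56 small nucleolar RNAs were rises (10.7%), and 4 rose without BPN/3J arrays 2 and 5. Of 79 serpin, Spink and Wfdc protease inhibitors 12 fell (15.2%) and 5 rose (6.33%). The rises numbered 3 without any single array other than BPH/2J array 6.

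Genes of fat tissue were higher in BPH/2J females. The mean over 11 adipocyte genes lay between 8.37 and 9.14 (median 8.87) in BPN/3J and between 9.20 and 9.97 (median 9.71) in BPH/2J, a difference of 0.83 (exact two-sided permutation test over all regroupings of the 12 arrays, p = 0.00216, the smallest this design allows, 0.0195 after Benjamini-Hochberg adjustment over 9 marker lists). *Ucp1*, the uncoupling protein of brown fat, lay between 5.22 and 6.35 (median 5.84) in BPN/3J and between 7.78 and 10.51 (median 9.57) in BPH/2J. Its log2 difference of 3.50 (SE 0.435) passed the Benjamini-Hochberg threshold (adjusted p = 9.64e-05) and not the Bonferroni threshold (limma adjusted p = 0.0719), the BPH/2J arrays being widely spread. The other calls were *Cidea*, a lipid droplet protein of brown fat (2.83-fold), and, as log2 differences, *Plin1* (0.84), the lipid droplet coat of adipocytes, *Fabp4* (0.60) and *Cox7a1* (0.47). Of these, only *Cox7a1* did not overlap between the strains. Leptin, *Lep*, differed by -0.15 and adiponectin, *Adipoq*, by 0.66 (adjusted p = 0.0773), neither past the test. The difference of the list was 0.93 without BPN/3J arrays 2 and 5 (exact permutation p = 0.00476). Whether fat tissue was attached to the kidneys is not given in the labels and was not tested.

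The last question was whether the strain difference in females differed from that in males. In a fit of all 24 arrays, 445 (2.10%) of 21159 probe sets passed the Benjamini-Hochberg threshold for this interaction, 231 with a more positive and 214 with a more negative strain difference in females. Of the 467 probe sets called in females, 93 passed it. In 36 of the 93 the difference in males lay within 0.2 of 0, on either side. Of the other 57 it had the same sign in both sexes and was larger in females in 26 and smaller in females in 28, and 3 had opposite signs. The 2 comparisons used different animals throughout.

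Among the genes past the Bonferroni threshold in females, *Scrg1* gave the largest interaction. Its strain difference was 3.19 in females and 0.00 in males, where both strains lay between 4.99 and 5.21, so that only BPH/2J females stood above the rest (interaction 3.19, SE 0.129, limma Benjamini-Hochberg adjusted p = 8.32e-14). Males and BPN/3J females (4.89 to 5.25) lay below the 25th percentile of signal, 5.34. So did *Tex15* in BPN/3J females (4.57 to 4.99) and *Csta2* in BPH/2J females (4.32 to 4.69). Whether differences can be measured at such low signals was not tested. *Inmt* was at 13.13 to 13.53 in males of both strains and in BPH/2J females at 11.90 to 12.30, and lowest in BPN/3J females at 9.16 to 10.61 (interaction 2.17, adjusted p = 4.46e-06). *Cyp4b1* differed by 3.42 in females and by 1.78 in males, and BPN/3J males (11.95 to 12.17) overlapped BPH/2J females (12.03 to 12.37). *Hsd17b14*, a steroid dehydrogenase, lay between 7.71 and 8.01 in BPN/3J females and between 8.96 and 9.64 in BPH/2J females (log2 1.49) and between 7.68 and 8.06 in males of both strains.

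The sign was reversed in some genes. *Cndp1* was higher in BPH/2J females by 1.23 and lower in BPH/2J males by 0.45, with BPN/3J males at 11.03 to 11.24 and BPH/2J males at 10.51 to 10.87. *Tc2n*, a C2 domain protein, behaved alike, at 0.98 in females (6.64 to 6.85 against 7.49 to 7.86) and -0.51 in males. Each of these interactions passed the test (1.68 for *Cndp1*, adjusted p = 1.59e-11, and 1.49 for *Tc2n*, adjusted p = 1.29e-08).

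In the other direction, *Igf2*, the fetal growth factor, lay between 11.88 and 12.07 in BPN/3J females and between 10.75 and 11.40 in BPH/2J females (log2 -0.97, Bonferroni-adjusted p = 0.0336), while all males lay between 6.45 and 6.94 (interaction -1.05, adjusted p = 6.31e-05). *Cacna1g*, a T-type calcium channel, lay between 7.79 and 8.58 in BPN/3J females and between 6.61 and 6.90 in BPH/2J females (log2 -1.32), against 6.02 to 6.64 in males. *Mro*, the maestro gene, lay between 6.78 and 7.24 in BPN/3J females, between 5.87 and 6.18 in BPH/2J females and between 5.72 and 6.13 in males (interaction -1.22). *Csta2*, a cystatin-like inhibitor (log2 -1.68 in females and -0.54 in males), and *Spink6* (-4.69 and -3.53) fell more in females. *Snx31*, a sorting nexin, rose less in females (0.75) than in males (1.87). *Slc6a18* fell by 0.61 in females and by 1.79 in males (interaction 1.18, adjusted p = 2.09e-10). *Hdc* differed by 1.17 in females and 5.60 in males (interaction -4.43, adjusted p = 1.35e-13), with BPN/3J males between 6.17 and 6.75 and every array of the other 3 groups at 10.65 or higher. *Slc7a13*, an amino acid transporter of the straight proximal tubule, was at 6.27 to 7.75 in females and 13.31 to 13.50 in males and differed between the strains by 0.88 in females and 0.01 in males (interaction adjusted p = 3.48e-05). *Ucp1* differed by 3.50 in females and by -0.08 in males (interaction 3.58, adjusted p = 0.00162).

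**Figure D5:**
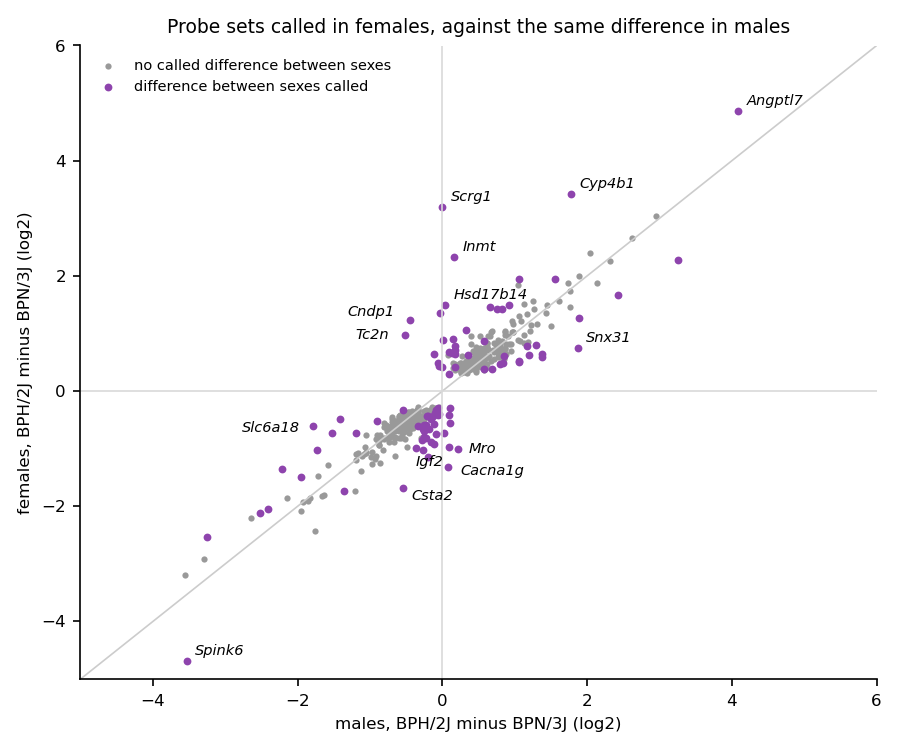
Log2 difference between BPH/2J and BPN/3J in females (y axis) against that in males (x axis) for the 467 probe sets called in females, with those past the interaction threshold in a second colour and the line of equal differences drawn. *Scrg1* and *Inmt* lie near 0 on the male axis and above 2 on the female axis, and *Cndp1* and *Tc2n* lie left of 0 for males and above it for females.

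Called genes sometimes lay side by side on a chromosome. Taking called genes within 500000 bases of each other, 26 runs of 3 or more contained 100 of the 435 placed called genes, and 5 of the runs moved in 1 direction. Runs start and end at called genes, so a high called share within them follows from their definition. Over all single-symbol probe sets 1.12% were called higher and 1.09% lower. The number of runs to be met by chance was not computed. Positions were those of the gene that a probe set names, and where the probe set itself matches the genome was not checked. At chr11:120464326-121097153, 7 of 32 measured genes were called, with *Cbr2* (2.28) and *Arl16* (0.81) higher and *Sectm1a* (-2.21), *Sectm1b* (-1.49), *Mrpl12* (-0.69), *Slc25a10* (-0.67) and *Rfng* (-0.52) lower. At chr13:119335527-119708260, 4 of 7 were called and all were lower, among them *Tmem267* (-2.54), the sterol synthesis enzyme *Hmgcs1* (-0.76) and the mitochondrial transhydrogenase *Nnt* (-0.33). At chr7:46760466-46958532, 3 of 6 were called and all were higher (*Hps5* 0.87, *Uevld* 0.85 and *Ldha* 0.46). The share of measured genes called ran from 0.802% on chromosome 10 to 4.40% on chromosome 14.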

How the data were processed

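RNA of whole kidney from 24 mice was hybridised to Affymetrix Mouse Gene 1.0 ST arrays, 6 per strain and sex. The authors deposited 1 table of log2 values made by robust multi-array averaging (RMA) from the array intensities. No source used here gives its version or says whether the arrays were normalised jointly. The table held 28853 probe sets, of which 21159 name 1 gene, 1881 several and 5813 none, and 18782 genes were represented by their brightest single-symbol probe set. Symbols and GRCm38 positions came from the platform annotation and RefSeq tables.

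The 6 BPH/2J and 6 BPN/3J females were compared in limma 3.58.1 (R 4.3.3). Calls used a Bonferroni-adjusted p under 0.05 over all probe sets, as in the study's methods, where limma replaced the methods' t-test, and gene lists used Benjamini-Hochberg adjustment over all probe sets. The strain effects of the sexes were compared by an interaction term over 24 arrays, and marker list means by exact permutation. No array was weighted or imputed. Named genes were the 15 largest rises and 15 largest falls among Bonferroni calls whose groups do not overlap. They were also the 6 largest interactions in each direction among genes called in females, and genes the study measured by quantitative PCR. Members of lists with the smallest p and defining markers were named too. Genes of runs and other members were named after their values were seen. The members, lists and tests were chosen with earlier results of these data known. Scripts were tested on simulated data. Each array is 1 mouse, and the number of arrays limits the precision. Figures were drawn with matplotlib 3.10.9. Alternatives comprised other tests, thresholds, scalings, filters on dim probe sets, covariates, a replicate block and leaving out arrays.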

Additional observations from a re-analysis of the deposited data

Results flagged for a closer look

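A single array stood apart from the other 5 of its strain in 28 of 438 groups of 6 values, by Dixon's test on the gap to its nearest neighbour. Chance flags about 1 in 20 groups. Of the 28, 22 lay in BPH/2J and 11 of these were array 3, which also had the highest hepatocyte mean of its strain, and the part of liver transcript in them was not tested. In BPH/2J array 3 the outlying log2 signals were *Mcm6* 6.79, *Cldn10* 11.46, *Cpa3* 6.12, *Tgfb2* 9.01, *Lcn2* 8.82 and *Bnip3* 11.69 as the highest, and *Slc6a18* 12.17, *Aqp3* 10.33, *Ace* 11.80, *Slco1a6* 11.48 and *Cyp2j11* 12.07 as the lowest. In BPH/2J array 6 they were *Lrmda* 6.51, *Slc34a3* 10.47 and *Drd3* 6.55 as the highest and *Rgs5* 9.73 and *Gucy1b1* 7.81 as the lowest. BPH/2J array 4 was highest for *Prkg1* (7.87) and lowest for *Slc26a4* (9.84) and *Tsc22d3* (7.89). BPH/2J array 2 was highest for *Nell2* (8.03) and for the mean of the exocrine pancreas list (5.15), and BPH/2J array 1 for *Cyp4a31* (12.68). Among BPN/3J arrays, array 5 was highest for *Slc2a2* (10.85) and lowest for *Atp6ap2* (11.09) and *Dna2* (7.12). Array 2 was highest for *H2-DMa* (8.44), array 1 lowest for *Adgre5* (9.55) and array 6 lowest for *Serpinh1* (8.12).

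The strain difference in females differed from that in males in 44 of the 210 probe sets of genes named here. The test was the interaction term at the Benjamini-Hochberg threshold, which 2.10% of all single-symbol probe sets passed. Some of these genes were named because they passed it, so the count was partly fixed in advance. The values below are the log2 strain difference in females minus that in males. Positive values were found for *Ucp1* (3.58), *Scrg1* (3.19), *Inmt* (2.17), *Cndp1* (1.68), *Cyp4b1* (1.64), *Tc2n* (1.49), *Hsd17b14* (1.45), *Slc6a18* (1.18), *Tex15* (0.89), *Slc7a13* (0.86), *Asns* (0.83), *Angptl7* (0.77), *Tmem267* (0.71), *Vwa1* (0.69), *Slc4a11* (0.53), *Fkbp5* (0.52), *Vcam1* (0.48), *Adgre5* (0.40), *Zpld1* (0.39), *Col15a1* (0.39), *Lrmda* (0.37) and *Slco1a6* (0.29). In *Slc6a18*, *Asns*, *Tmem267*, *Vwa1*, *Fkbp5*, *Adgre5* and *Lrmda* the positive value came with a strain difference that was negative in both sexes and smaller in females. Negative values were found for *Hdc* (-4.43), *Cacna1g* (-1.40), *Mro* (-1.22), *Spink6* (-1.16), *Csta2* (-1.14), *Snx31* (-1.13), *Igf2* (-1.05), *Cbr2* (-0.98), *Cyp4a31* (-0.78), *Havcr1* (-0.60), *Ddc* (-0.59), *Slc5a6* (-0.57), *Mme* (-0.55), *Cndp2* (-0.50), *Kcnk1* (-0.38), *Cyp2j11* (-0.36), *Shmt1* (-0.34), *Asl* (-0.33), *Slc13a1* (-0.28), *Slc15a2* (-0.25), *Oat* (-0.25) and *Bnip3* (-0.20).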

How the results depend on the processing

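The counts of calls in females depended on the test and the number of arrays, from main values of 237 higher and 230 lower. By the methods' t-test, for which no variance assumption is stated, they became 131 and 121 with unequal variances and 175 and 169 with pooled variance. They were 366 and 374 with a trended and robust variance, 411 and 401 in a fit of all 24 arrays, 147 and 142 without BPN/3J arrays 2 and 5, 1902 and 1412 at the Benjamini-Hochberg threshold and 132 and 126 with a fold over 1.5 in addition. Leaving out 1 array gave 176 to 206 and 161 to 181. The replicate numbers did not pair the females (correlations of same-numbered arrays from -0.567 to 0.343). With the number as a replicate block the counts were 86 and 79. In that fit 133 list members were called, against 149 in the main fit, and 417 interactions, against 445. Of the 45 named probe sets chosen by size, by interaction or for the quantitative PCR, 37 passed in the block fit. All 467 calls kept their sign and passed the Benjamini-Hochberg threshold in the block fit. Of the 28 largest rises and falls named, *Inmt* lost its Bonferroni call under both t-tests and the trended and robust variance, and *Wfdc17* in the block fit. Called list members ranged from 130 to 154 and interactions from 389 to 443 when 1 array was left out. Without BPN/3J arrays 2 and 5 they numbered 115 and 360, below both ranges. At a Bonferroni threshold 87 interactions passed. Of the same 45 named probe sets, 44 passed in the main fit, 39 and 40 by the t-tests, 41 without BPN/3J arrays 2 and 5 and 42 to 43 with 1 array left out. Those chosen by size or interaction had to pass the Bonferroni threshold to be named, so their passing in the main fit was fixed in advance. Dim probe sets, common median, quantile normalisation and the covariates kept each of these counts within 1.5 times. Within lists, the hepatocyte covariate moved the falls of the proximal tubule list from 6 to 10, the rises of the DNA replication list from 5 to 3 and those of the interferon list from 2 to 0, and either covariate moved the rises of the adipocyte list from 5 to 8.

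The values that changed sign did not pass the test over all arrays, and of the changed values only that of *Maob* without BPN/3J arrays 2 and 5 did (limma adjusted p = 0.0396). Without BPN/3J arrays 2 and 5, or with the hepatocyte mean as covariate, *Alb* was 0.52 and 0.21, *Maob* 0.47 and 0.20, *Lcn2* 0.02 and 0.04 and *Slc34a1* -0.01 and -0.00, and without those arrays the hepatocyte list mean was 0.55, the exocrine pancreas mean -0.01, *Wnk1* -0.01 and *Slc9a3* and *Scnn1a* -0.00. Under quantile normalisation *Slc34a1* and *Umod* were -0.01 and *Kcnj1* 0.00. With 1 array left out the adrenal cortex mean ran from -0.34 to 0.70, the adrenal medulla mean from -0.08 to 0.44, the exocrine pancreas mean from -0.03 to 0.04, *Maob* from -0.39 to 0.10, *Slc34a1* from -0.00 to 0.01, *Slc9a3* from -0.00 to 0.05, *Kcnj1* from -0.03 to 0.01 and *Agtr1a* from -0.01 to 0.02. The causes were not tested.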

Other observations

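The list means of the 4 sets of markers of other tissues not described above differed little between the strains. By the exact permutation test, the mean of 3 red blood cell genes was lower in BPH/2J by 0.16 (p = 0.0216, 0.0779 after Benjamini-Hochberg adjustment over 9 lists) and that of 8 skeletal muscle genes by 0.08 (p = 0.0260, adjusted 0.0779). In the same exact test the ovary and oviduct mean differed by 0.05 (p = 0.0866, adjusted 0.195) and the urothelium mean by 0.05 (p = 0.206, adjusted 0.370). Single genes were called at the Benjamini-Hochberg threshold in each list. Falls numbered 1 of 3 red blood cell genes (33.3%) and 1 of 8 skeletal muscle genes (12.5%), against 6.90% of all genes. Rises numbered 2 of 6 urothelium genes (33.3%) and 1 of 7 ovary and oviduct genes (14.3%), against 9.07%. Without BPN/3J arrays 2 and 5, 1 urothelium gene rose.

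The spread within a strain was uneven. In BPN/3J females 193 genes had an SD over 1, among them 23 of the 24 hepatocyte genes, against 60 in BPH/2J females, with 15 of the 24, and 23 genes in the 4 BPN/3J females other than arrays 2 and 5. The median SD over all genes was 0.103 in BPN/3J and 0.101 in BPH/2J.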
